A study of Mus musculus with 11 samples.

Results

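Cytosolic ribosomal protein genes encode the proteins of the 2 subunits of the ribosome that translates nuclear-encoded messages. They were taken by symbol from the RefSeq annotation of the mouse genome build mm10 (GRCm38.p6). The rule kept protein-coding symbols made of Rpl or Rps, digits and at most a trailing a, x, y or l, together with Rplp0, Rplp1, Rplp2 and Rpsa. It gave 81 genes of 21887 protein-coding genes outside the mitochondrial genome, 50 for the large subunit and 31 for the small subunit.

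Ribosomal proteins are made in near-equal amounts and assembled with ribosomal RNA in the nucleolus. Their genes are short, broadly transcribed in dividing cells, and known for pyrimidine-rich transcription starts and for introns that carry small nucleolar RNAs. Rbpj is the DNA-binding partner of Notch, ICN1 is the intracellular fragment of Notch1 that joins it on DNA, and Zmiz1 is a PIAS-like coactivator that binds Notch1. Activated Notch1 is a common driver of T-cell acute lymphoblastic leukaemia, and ribosome production is among the processes that rise with growth in such cells.

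The data are chromatin immunoprecipitation with sequencing (ChIP-seq) from the mouse T-cell leukaemia line 8946. The cells had received 2 retroviruses, one with an epitope-tagged Zmiz1 and the NGFR surface marker and one with an activated Notch1 and GFP, and GFP+/NGFR+ cells were sorted. The HA line carried HA-Zmiz1 with the Notch1 allele labelled DEGFDLNRDP, and the Flag line carried Flag-Zmiz1 with the allele labelled L1601PDP, so that both Zmiz1 and Notch1 were supplied in every library and no library lacked them. HA-Zmiz1 and ICN1 were precipitated from the HA line, and Flag-Zmiz1, ICN1, Rbpj and 4 histone H3 modifications from the Flag line, with 1 input library a line.

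Each target and line had 1 library, so no difference between libraries had a replicate check and no test between them was made. The HA line's headers describe pooled reads. The 2 lines differ in tag, antibody and Notch1 allele together, and these cannot be told apart. Factor libraries held 13.5 to 19.0 M filtered tags (M, tags in units of 1e6) and the inputs 26.8 M (HA line) and 36.4 M (Flag line), while totals of the histone libraries are unknown from the segment lists. The authors' lists held 20993 Rbpj peaks, 4984 HA-Zmiz1 peaks, 581 Flag-Zmiz1 peaks, 414 ICN1 peaks in the HA line and 82 in the Flag line. In a bulk precipitate the share of cells that carry a protein or mark and the amount per cell cannot be told apart.

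The T lymphocyte label was checked with H3K4me3, a mark of active starts. It covered an end of 8 of 8 T-cell marker genes, 1 of 6 B-cell genes (Ebf1) and 1 of 6 myeloid genes (Itgam). The labels of the 2 H3K27 libraries went against the marks' known places. The library labelled H3K27me3 covered 9 of 10 genes active in most cells and 0 of 10 silent developmental genes. The library labelled H3K27ac covered 0 of the 10 active genes and 9 of the 10 silent ones. H3K27me3 is known as a mark of Polycomb-silenced genes and H3K27ac as a mark of active ones, and the names under which the authors deposited the 2 segment lists each give the other mark. Both are called by label throughout and no silencing or activity is read from their names.

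Promoter sequences in the RefSeq table of GRCm38.p6 could be matched for 61 of the 81 genes. The following 7 are printed from 150 bases before to 25 bases after the annotated start, since they are the starts with the strongest Rbpj summits, the 2 starts with an HA-Zmiz1 summit, and 1 start with no Rbpj peak within 5 kb (Rpl31). Capitals mark 4 fixed motifs on either strand. GTGGGAA is the longer Rbpj motif and contains the shorter core motif of that factor, TGGGAA. The motif of the ETS family is CCGGAAG, that of the Sp1 family is GGGCGG, and the E box is CACGTG.
Rpl23, chr11:97782415-97782589, minus strand: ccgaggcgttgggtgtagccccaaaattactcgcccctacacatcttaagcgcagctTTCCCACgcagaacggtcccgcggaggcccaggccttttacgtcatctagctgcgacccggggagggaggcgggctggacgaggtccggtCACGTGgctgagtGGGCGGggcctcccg
Rpl10a, chr17:28328321-28328495, plus strand: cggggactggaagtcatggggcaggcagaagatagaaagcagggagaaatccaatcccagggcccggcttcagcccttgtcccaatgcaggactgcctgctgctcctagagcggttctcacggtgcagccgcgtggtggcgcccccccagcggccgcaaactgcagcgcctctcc
Rpl36a, chrX:134585504-134585678, plus strand: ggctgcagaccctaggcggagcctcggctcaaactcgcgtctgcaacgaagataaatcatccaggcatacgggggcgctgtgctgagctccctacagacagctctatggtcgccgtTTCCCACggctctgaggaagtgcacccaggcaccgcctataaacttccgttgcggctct
Rpl39, chrX:37085198-37085372, minus strand: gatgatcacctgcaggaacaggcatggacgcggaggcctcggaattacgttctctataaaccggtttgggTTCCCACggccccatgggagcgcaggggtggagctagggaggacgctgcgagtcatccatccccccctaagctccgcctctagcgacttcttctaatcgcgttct
Rpl27, chr11:101442095-101442269, plus strand: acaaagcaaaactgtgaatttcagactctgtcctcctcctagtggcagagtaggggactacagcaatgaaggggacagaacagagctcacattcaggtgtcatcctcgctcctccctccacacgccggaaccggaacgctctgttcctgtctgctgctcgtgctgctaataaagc
Rps19, chr7:24884442-24884616, plus strand: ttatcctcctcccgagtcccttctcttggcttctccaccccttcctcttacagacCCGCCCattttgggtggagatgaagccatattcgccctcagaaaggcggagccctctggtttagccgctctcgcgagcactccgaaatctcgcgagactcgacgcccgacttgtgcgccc
Rpl31, chr1:39367701-39367875, plus strand: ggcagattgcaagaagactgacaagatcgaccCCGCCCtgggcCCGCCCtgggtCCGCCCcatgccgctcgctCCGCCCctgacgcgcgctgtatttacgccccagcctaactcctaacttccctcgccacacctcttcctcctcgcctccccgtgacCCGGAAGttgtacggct
In Rpl23, Rpl36a and Rpl39 the longer Rbpj motif lay on the strand opposite to the gene, read as TTCCCAC along the printed strand. Rpl10a, Rpl27 and Rps19 held no TGGGAA in the 175 printed bases.

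Rbpj lay beside most ribosomal protein genes. A peak fell within 5 kb of the span of 72 of the 81 genes (88.9%, exact 95% interval 80% to 94.8%), against 48.7% of all coding genes. Active starts as a whole often carried Rbpj: among genes with H3K4me3 over an end, 70 of 75 ribosomal protein genes had a peak (93.3%), against 84.5% of all such genes. Among genes no longer than the longest ribosomal protein gene the background was 35.1%. These intervals cover counting error only, and reads without molecular identifiers are not independent molecules. Rbpj was found beside 44 of 50 large-subunit genes (88%) and 28 of 31 small-subunit genes (90.3%).

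**Figure D1:**
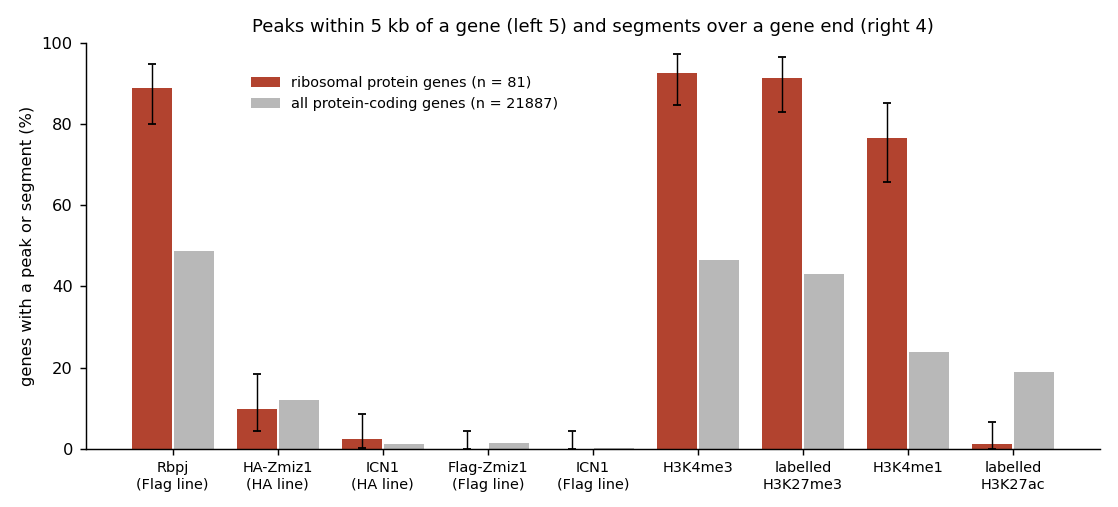
Bars give the percentage of genes with a peak within 5 kb (factors) or a segment over an end of the gene (histone marks), for the 81 ribosomal protein genes with exact 95% binomial intervals and for all 21887 protein-coding genes. Rbpj, H3K4me3, the library labelled H3K27me3 and H3K4me1 stood at 76.5% to 92.6% of ribosomal protein genes, and HA-Zmiz1 at 9.88%.

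Most annotated starts of these genes had an Rbpj summit close by, and some genes had further summits elsewhere. Of the 61 genes with an annotated start in the promoter table, 47 had a summit within 250 bp of it (77%, 64.5% to 86.8%), against 32.7% of all coding genes with a start. With H3K4me3 over an end as well, the count was 45 of 55 (81.8%), against 63.9%. The strongest summit at each of the 47 starts lay between 231 bp upstream and 123 bp downstream, at a median of 61 bp upstream. In 34 genes it was upstream of the start, in 13 at or downstream of it, and in 35 within 100 bp.

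The median fold of these Rbpj peaks was close to that of all genes, and a few peaks stood far above the rest. The strongest Rbpj peak per gene had a median fold of 8.22 over local input (authors' value, range 3.50 to 38.9, n = 72), against 7.76 over all genes with a peak (n = 10649). Of the 72, 39 were above the median of all genes, 26 (36.1%) above the 75th percentile and 11 (15.3%) above the 90th. By −log10 p the median was 17.6, against 14.0 over all genes with a peak, with 47 of the 72 above it. The strongest was taken from a median of 1 peak per gene here, against 2 over all genes with a peak. The median fold was 8.48 in large-subunit genes and 7.70 in small-subunit genes. The local input background under these peaks was a median of 2.45 times the genome-wide level, against 1.92 times for all genes, and its part in the count was not tested. None of the 72 peaks stood on an input background above 10 times.

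**Figure D2:**
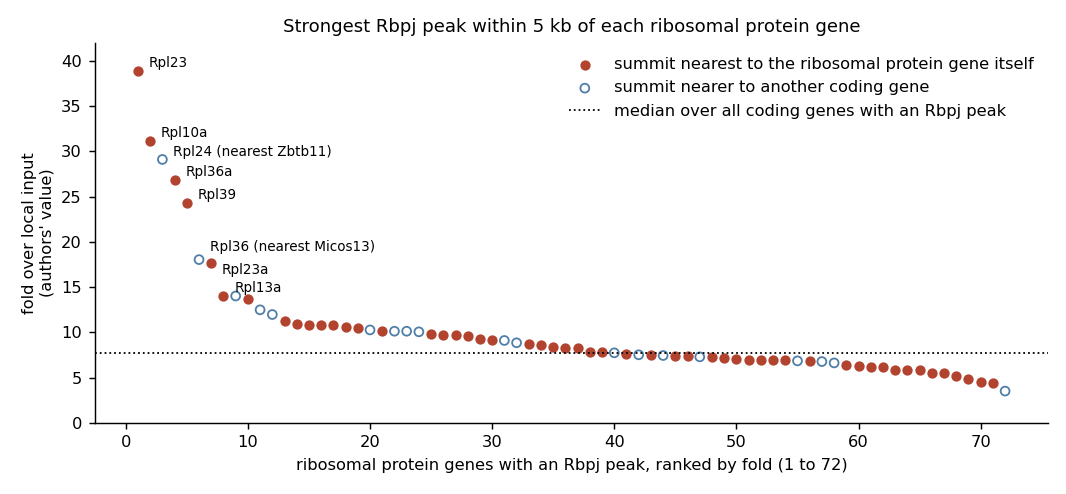
Each point is the strongest Rbpj peak by −log10 p within 5 kb of 1 ribosomal protein gene, with the gene's rank on the x axis and the authors' fold over local input on the y axis. Filled points have that gene as the nearest coding gene (53 of 72), open points another gene, and the dotted line is the median of all genes with a peak (7.76).

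Rpl23, a large-subunit protein that can also bind the p53 regulator Mdm2, had the tallest peak of the genes (fold 38.9, −log10 p of 139, chr11:97782355-97782752). It ranked 4 of 20993 Rbpj peaks by −log10 p, with its summit 84 bp upstream of the start. The TTCCCAC printed above begins 93 bp upstream. Rpl10a, a protein of the L1 stalk, followed among starts with a fold of 31.1, rank 21 and a summit 24 bp upstream. Rpl36a, which lies near the exit site for transfer RNA, had a fold of 26.9, rank 68 and a summit 66 bp upstream. Rpl39, which lines the exit tunnel of the nascent peptide, had a fold of 24.3, rank 151 and a summit 81 bp upstream. These 4 led the 61 annotated starts, and the next, that of Rpl13a, had a fold of 14.0.

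Strong peaks nearer to other genes also entered the count. The second strongest peak by −log10 p, at chr16:55973287-55973893, was counted for Rpl24, the gene mutated in the Belly spot and tail mouse (fold 29.1, rank 16). It lay 7330 bp downstream of the Rpl24 start and inside Zbtb11, while the peak at the Rpl24 start itself had a fold of 10.8 and a summit 31 bp downstream. Rpl36 had a peak of fold 18.0 inside the neighbouring Micos13 and one of 16.6 within its own span. Rpl23a, a protein at the mouth of the exit tunnel, had 7 Rbpj peaks, the most of any of these genes. Most of the 7 lay inside the neighbouring Tlcd1 or Nek8. The strongest, with a fold of 17.6, lay within Rpl23a's own span. Rpl13a had a strongest fold of 14.0, with its summit 5 bp downstream of the start. In all, 125 distinct Rbpj peaks lay within 5 kb of the 81 genes, and 63 genes had at least 1 peak to which they were the nearest coding gene.

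The stalk proteins and Rpsa held middling values. Rplp0, Rplp1 and Rplp2, which form the stalk that recruits elongation factors, had strongest Rbpj folds of 6.84, 8.56 and 7.51. That of Rplp0 came from a peak inside Gcn1, 5760 bp downstream of its start, and the stronger of the peaks at its own start had a fold of 5.45. Rpsa, a small-subunit protein also known as the laminin receptor precursor, had a fold of 10.8. No Rbpj peak lay within 5 kb of Rpl6, Rpl10l, Rpl31, Rpl32l, Rpl37a, Rpl39l, Rps9, Rps14 or Rps27l. Of these 9, Rpl6, Rpl31, Rpl37a, Rps9 and Rps14 carried H3K4me3 over an end, with folds of 13.0, 20.7, 20.0, 15.5 and 21.5 over control, so an H3K4me3-marked start was not always called for Rbpj at this depth.

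The longer Rbpj motif was found in these promoters at a share near that elsewhere, from few genes. Motifs were searched on both strands from 250 bases before to 50 bases after the start. GTGGGAA was found in 4 of 61 ribosomal protein promoters (6.56%, 1.82% to 15.9%), against 6.96% of all coding genes' promoters and 6.84% of those with H3K4me3. The core TGGGAA was found in 13 (21.3%, 11.9% to 33.7%), against 27.4% and 25.6%. The intervals of GTGGGAA and TGGGAA held both of their backgrounds and were wide. A moderately higher or lower share could thus not be seen at this number of genes. The 4 genes with GTGGGAA were Rpl23, Rpl36a, Rpl39 and Rpl3l, of which the first 3 had an Rbpj summit at the start.

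Among the 47 genes with Rbpj at the start, those 3 had folds of 38.9, 26.9 and 24.3, and the 44 without GTGGGAA had a median of 7.20 (3.50 to 31.1). Only Rpl10a among the 44 exceeded the lowest of the 3. Over all coding genes with Rbpj at the start, the median fold was 8.08 with the motif (n = 429) and 7.00 without it (n = 5294). The comparison in ribosomal protein genes was made after the folds were seen, rests on 3 genes, and is given with no test.

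**Figure D3:**
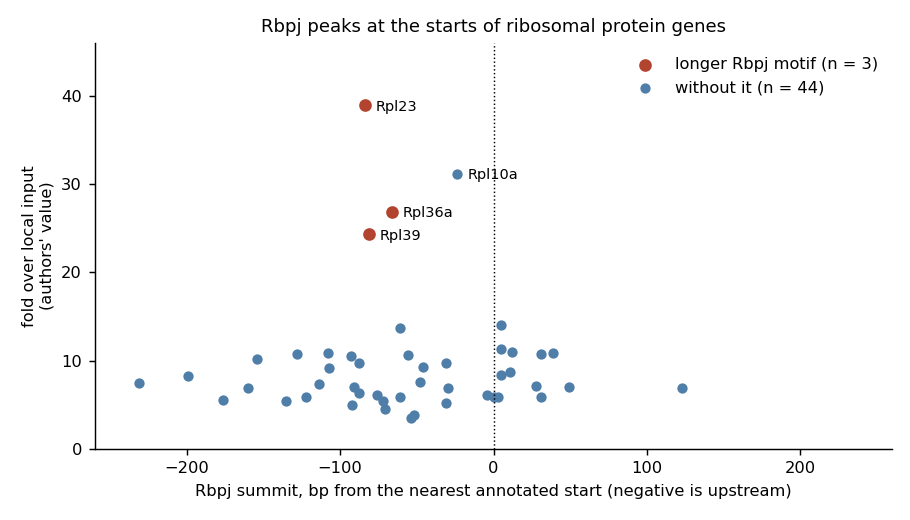
Each point is the strongest Rbpj peak at the start of 1 of 47 ribosomal protein genes, with its summit's distance from the nearest annotated start on the x axis and the authors' fold over local input on the y axis. The 3 genes with the longer Rbpj motif in the promoter lie at folds of 24.3 to 38.9, Rpl10a at 31.1, and the next gene, Rpl13a, at 14.0.

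Of the other promoter motifs, CCGGAAG and CTCTTTCC were more frequent than in both backgrounds beyond counting error. The ETS-type CCGGAAG was found in 25 of 61 ribosomal protein promoters (41%, 28.6% to 54.3%), against 12.9% of all promoters and 22.3% of those with H3K4me3. The pyrimidine-rich CTCTTTCC was found in 10 (16.4%, 8.15% to 28.1%), against 3.51% and 3.54%. It was counted on either strand anywhere in the searched bases, so this is not a count of pyrimidine-rich transcription starts. The YY1-type AAGATGGC was found in 5 (8.2%, 2.72% to 18.1%), against 3.57% and 5.73%. GGGCGG was found in 36 (59%, 45.7% to 71.4%), against 49.2% and 70.8%, and CACGTG in 6 (9.84%, 3.7% to 20.2%), against 8.91% and 11.9%. The intervals of AAGATGGC, GGGCGG and CACGTG held both of their backgrounds. Median Rbpj fold at the start was 6.94 in the 20 genes with CCGGAAG and 8.73 in the 27 without it, and over all coding genes 7.13 with it and 7.04 without it. A match in letters is a description of the promoter and not a bound site.

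HA-Zmiz1 was found at few of these genes. A peak lay within 5 kb of 8 of 81 genes (9.88%, 4.36% to 18.5%), against 12.1% of all coding genes and 6.67% of genes no longer than the longest ribosomal protein gene. Among genes with H3K4me3 over an end, the count was 8 of 75 ribosomal protein genes (10.7%, 4.72% to 19.9%), against 20.8%. The exact interval over the 81 genes held the shares of all coding genes and of short genes, and that over the 75 ended just below the share of H3K4me3-marked genes. Large-subunit genes held 6 of the 8 and small-subunit genes 2.

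A summit within 250 bp of a start was present in 2 of 61 genes (3.28%, 0.4% to 11.3%), against 3.24% of all genes with a start. With H3K4me3 over an end as well, the count was 2 of 55 (3.64%, 0.443% to 12.5%), against 6.39%. The 2 were Rpl27 (fold 7.86, summit 24 bp downstream) and Rps19 (fold 6.24, summit 120 bp upstream). Both are known from Diamond-Blackfan anaemia, an inherited failure of red cell production. Both had an Rbpj peak at the same start, with a fold of 8.73 and a summit 11 bp downstream in Rpl27 and a fold of 4.98 and a summit 92 bp upstream in Rps19. Neither promoter held TGGGAA in the bases printed above.

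The tallest HA-Zmiz1 peak was counted for Rpl11, which with Rpl5 and 5S ribosomal RNA can bind Mdm2 (fold 11.99, rank 280 of 4984). Its summit lay 5056 bp from the gene, with the peak's edge inside the 5 kb window. Rps29 had a fold of 7.00 at 613 bp and Rpl3, which reaches toward the peptidyl transferase centre, 4.92 at 142 bp. The peaks of Rpl35 (fold 6.06) and Rpl24 (fold 5.13) lay inside Arpc5l and Zbtb11. The median fold of the 8 was 6.15, against 6.56 over all genes with an HA-Zmiz1 peak, and 3 of the 8 were above it.

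Of these 8 HA-Zmiz1 peaks, 7 overlapped an Rbpj peak, all but that of Rps29, against 71.3% of the whole HA-Zmiz1 list. Read from the Rbpj side, 7 of the 125 peaks beside ribosomal protein genes overlapped HA-Zmiz1 (5.6%, 2.28% to 11.2%), against 16.9% of the whole Rbpj list and 14.5% of Rbpj peaks within 5 kb of any coding gene. The 2 libraries come from different lines.

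ICN1 in the HA line was called beside 2 of the 81 genes (2.47%, 0.3% to 8.64%), against 1.21% of all coding genes. The peak counted for Rpl24 (fold 18.0, rank 15 of 414) coincided with the Rbpj and HA-Zmiz1 peaks inside Zbtb11. The peak of Rpl36a (fold 4.66, rank 397) had its summit 87 bp upstream of the start and overlapped the tall Rbpj peak there. Rpl36a was the only one of these genes with an ICN1 summit within 250 bp of a start in the promoter table. The tall Rbpj peaks of Rpl23, Rpl10a and Rpl39 had no ICN1 peak in either line. ICN1 in the Flag line, the line in which Rbpj was measured, was called beside 0 of 81 genes, against 0.0822% of all coding genes, and Flag-Zmiz1 beside 0 of 81, against 1.36%. A count of 0 allows a share of up to 3.7%, above both backgrounds, so a lack of these peaks was not detectable as a difference at this number of genes.

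Ribosomal protein genes carried H3K4me3 almost throughout. H3K4me3 covered an end of 75 of 81 genes (92.6%, 84.6% to 97.2%), against 46.6% of all coding genes. The library labelled H3K27me3 covered an end of 74 (91.4%, 83% to 96.5%), against 43.1%. H3K4me1, known from enhancers and from the flanks of active starts, covered an end of 62 (76.5%, 65.8% to 85.2%), against 23.8%. In the library labelled H3K27ac only 1 gene, Rpl37, was covered at an end (1.23%, 0.0313% to 6.69%), against 18.9%.

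Their H3K4me3 and labelled-H3K27me3 segments were also tall. The median H3K4me3 fold over control was 17.6 (11.3 to 32.2, n = 75), against 14.7 over all covered genes (n = 10192), and 58 of the 75 lay above that median. The segments had a median width of 4.2 kb, against 3.2 kb. In the library labelled H3K27me3 the median fold was 5.53 (2.87 to 10.23, n = 74), against 4.36, with 61 of 74 above it. H3K4me1 showed no such shift, with a median fold of 2.41 in ribosomal protein genes and 2.42 over all covered genes.

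**Figure D4:**
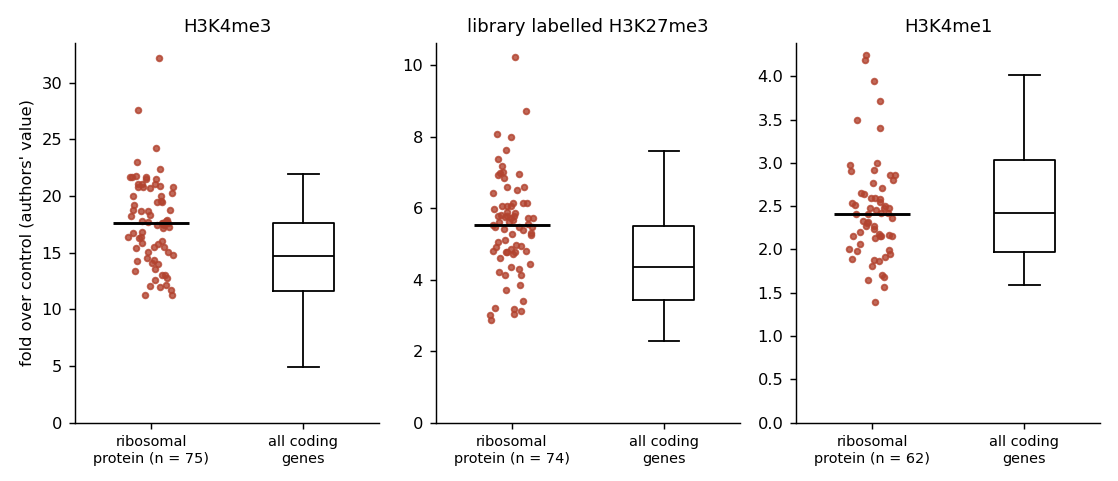
Points are the authors' fold over control of the segment over an end of each covered ribosomal protein gene, with the median as a line, and boxes give the 25th, 50th and 75th percentiles of all covered coding genes with whiskers at the 5th and 95th. Points stand higher than the box median for H3K4me3 (17.6 against 14.7) and the library labelled H3K27me3 (5.53 against 4.36) and level with it for H3K4me1 (2.41 against 2.42).

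Among segments over a gene end, Rpl39 had the highest H3K4me3 fold at 32.2, from 1153 reads in the precipitate and 55 in the control. Rpl4, which narrows the exit tunnel, had 27.6, Rps6, the classic substrate of the S6 kinases, 24.2, Rps23, a protein of the decoding centre, 23.0, and Rps16 22.4. The lowest were Rpl37 and Rpl24 at 11.3 each, Rpl3l at 11.7, Rplp0 at 11.9 and Rps15 at 12.1. The order differed in the library labelled H3K27me3, where, again over a gene end, Rps23 was highest at 10.23, followed by Rps14 at 8.72, Rps27l at 8.07, Rpl32 at 7.98 and Rpl10, a gene mutated in some human T-cell leukaemias, at 7.63. Rpl24 (2.87), Rpl37 (3.02), Rpl30 (3.04), Rpl19 (3.11) and Rplp0 (3.19) were lowest there. Rpl19's segment over its end was 2.4 kb wide, and another segment within its span had a fold of 10.76, above all other ribosomal protein genes. Rpl24, Rpl37 and Rplp0 stood at the low end of both libraries. Rpl37 was also the gene with an end covered in the library labelled H3K27ac, by a segment 16.8 kb wide with a fold of 2.96.

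The 2 H3K4 marks differed at the start of these genes and shared much of the sequence downstream. A segment of H3K4me1 covered the start in 2 of 61 genes (3.28%, 0.4% to 11.3%), against 16.3% of all genes with a start. It covered the end away from the start in 43 of the 61 (70.5%, 57.4% to 81.5%), against 11.1% of all genes with a start and 13.2% of those no longer than the longest ribosomal protein gene. H3K4me3 covered the start in 57 of the 61, against 49.6%. It covered the end away from the start in 23 (37.7%, 25.6% to 51%), against 5.24%, and 7.68% of those no longer than the longest ribosomal protein gene. The far-end backgrounds were not limited to genes with H3K4me3. The genes are short, with a median span of 3.175 kb, against 17.169 kb for all coding genes, so the far end lies closer to the start than in most genes.

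Measured by distance, 3.28% of the 61 ribosomal protein starts lay under H3K4me1, against 25.2% of the 8233 other genes with H3K4me3 over an end. The 61 were not filtered for H3K4me3, which 55 of them had over an end, and the sets were not matched for gene length. At 2 kb downstream the share was 88.5%, its highest value, against 66.6%, and at 2 kb upstream 49.2%, against 46.4%. H3K4me3 reached farther into the ribosomal protein genes, with 82% covered at 2 kb downstream, against 40.6%, and 14.8% at 2 kb upstream, against 21%. The library labelled H3K27me3 followed it, with 67.2% at 2 kb downstream, against 37%. At 2 kb the sets of genes thus lay farther apart downstream than upstream.

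**Figure D5:**
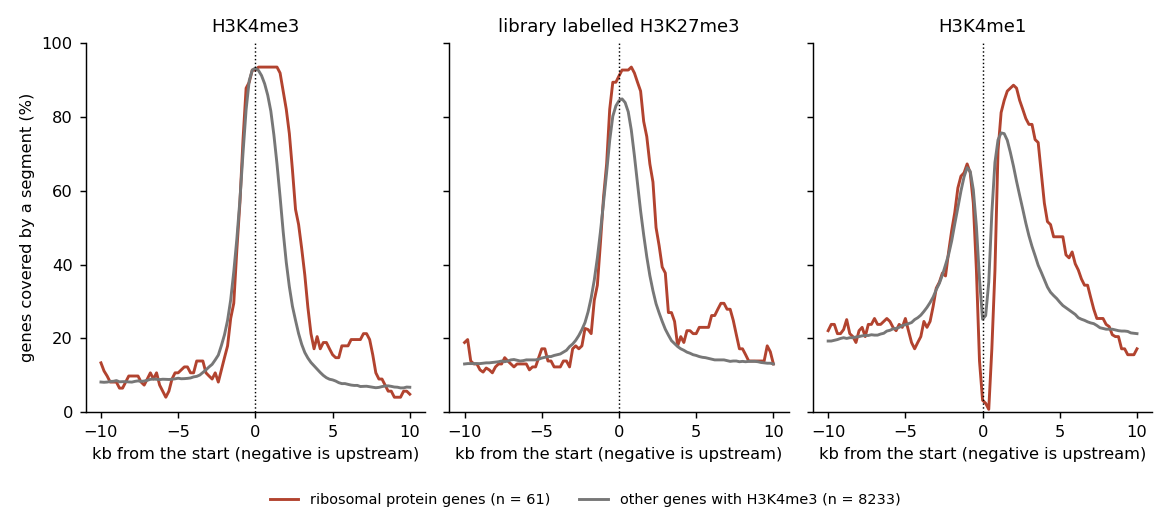
Lines give the percentage of genes whose sequence lies under a segment at each distance from the annotated start (x axis, kb, negative upstream). They cover 61 ribosomal protein genes, not filtered for H3K4me3, and 8233 other genes with H3K4me3 over an end. H3K4me3 and the library labelled H3K27me3 extend farther downstream in ribosomal protein genes, and H3K4me1 drops to 3.28% at their starts and reaches 88.5% at 2 kb downstream.

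By combination, 58 genes had H3K4me3, the library labelled H3K27me3 and H3K4me1 over an end, 14 the first 2 without H3K4me1, and 2, Rpl17 and Rps2, H3K4me3 with H3K4me1, while Rpl37 had those of the 58 and the library labelled H3K27ac. Rpl38, mutated in the tail-short mouse, had only H3K4me1 over an end, and Rps27l, a paralogue known to respond to p53, only the library labelled H3K27me3. Both had an H3K4me3 segment inside their span, with folds of 22.3 and 20.7. Rpl22, which mouse alpha-beta T cells need for their development, had no segment over an end but an H3K4me3 segment of fold 16.6 within its span, and Rbpj at its start with a fold of 8.41. Its H3K4me3 segment thus lay inside the annotated span and over neither end.

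The tissue-restricted paralogues stood apart. Rpl10l and Rpl39l, known from testis, and Rpl32l had no H3K4me3 segment over any part of their span and no Rbpj peak within 5 kb. The other 78 genes had H3K4me3 over some part of the span. Rpl3l, known from heart and skeletal muscle, had an H3K4me3 segment of fold 11.7, but over its end away from its starts. It had an Rbpj fold of 10.1 from a peak nearest to Ndufb10 that was also counted for its neighbour Rps2.

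Rbpj peaks beside ribosomal protein genes lay in H3K4me3-marked chromatin. Of the 125 peaks, 121 overlapped H3K4me3 (96.8%, 92% to 99.1%), against 87.3% of the whole Rbpj list and 90% of Rbpj peaks within 5 kb of any coding gene, and 121 overlapped the library labelled H3K27me3 (96.8%), against 86.2% and 88.3%. H3K4me1 was overlapped by 48 of them (38.4%, 29.8% to 47.5%), against 57.8% of the list and 52% of Rbpj peaks within 5 kb of any coding gene. The library labelled H3K27ac was overlapped by 1 (0.8%), against 5.31% and 5.26%.

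Small nucleolar RNA genes, which the symbol rule did not use, lay in some of these genes. In 29 of 81 (35.8%) the span held at least 1 small nucleolar RNA gene, 58 in all, against 1.7% of all coding genes and 0.784% of those no longer than the longest ribosomal protein gene. These RNAs guide modification of ribosomal RNA. The genes' spans ran from 0.592 kb (Rpl32l) to 11.774 kb (Rps15a).

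Set beside 2 other gene lists, the cytosolic genes differed most, by share of genes, in H3K4me1. Mitochondrial ribosomal protein genes, which encode the separate ribosome of that organelle, had Rbpj beside 72 of 78 (92.3%, median fold 7.38), HA-Zmiz1 beside 12 (15.4%) and H3K4me3 over an end of 73 (93.6%, median fold 17.1). H3K4me1 lay over an end of 30 of the 78 (38.5%), against the 62 of 81 cytosolic genes. The other list held 23 genes of the cytosolic ribosome or with messages known for pyrimidine tracts, such as Rack1, Eef1a1 and Tpt1. It was not limited to genes of translation, and held Npm1, Ncl, Nap1l1 and Hnrnpa1. All 23 had Rbpj within 5 kb and H3K4me3 over an end, with a median H3K4me3 fold of 14.3, against 17.6 in the cytosolic genes. H3K4me1 lay over an end of 9 (39.1%). HA-Zmiz1 lay beside 5 (21.7%), against 9.88% of the cytosolic genes, namely Eef2, Eif4a1, Hnrnpa1, Pabpc1 and Rps3a1. In the library labelled H3K27me3 the median fold was 4.73 in the mitochondrial list and 4.42 in the 23, against 5.53. Neither list had a Flag-Zmiz1 peak, and ICN1 in the HA line was called beside 1 mitochondrial gene and 0 of the 23. The lists were not matched for gene length, and their differences were not tested.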

How the data were processed

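Reads were aligned to mm10 with Bowtie 0.12.7, and MACS2 2.0.10 and SICER 1.1 were used, per the submitters' processing notes. The lists of factor peaks were called by the authors against input at a p-value limit of 1e-05, per the file headers (MACS 2.0.10.20120913). Each deposited peak has a pileup (signal of stacked tags at the summit), a −log10 p (a column with a damaged header, identified by its match with the deposited BED lists and used for all ranks) and a fold over local input, and each deposited histone segment has read counts, a fold over control and a p-value. All deposited segments have a false discovery rate of at most 0.001.

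A peak was counted for a gene within 5 kb of its span, and a segment where it covered a gene end (segments run in steps of 200 bp). Spans and symbols came from RefSeq GRCm38.p6, whose gene spans merge all transcripts. Shares have exact (Clopper-Pearson) 95% intervals, and a count of 0 was given a floor of 3 counts. Intervals and floors cover counting error only. The assignment was tested on simulated data with known answers. With 1 library a group there was no test.

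The members, lists and motifs were chosen with earlier results of these data known. Genes were named by rule: the 8 strongest Rbpj and 8 strongest HA-Zmiz1 peaks by −log10 p, each gene with ICN1 or without Rbpj or H3K4me3, the one under the library labelled H3K27ac, the 5 highest and 5 lowest folds of 2 marks, the paralogues, the stalk genes and Rpsa. Rpl5, Rpl17, Rpl32l, Rps2, Rps15a and the examples from the comparison lists were named after their values were seen. Python 3.11.15, pandas 2.3.3, NumPy 2.4.6 and SciPy 1.17.1 were used. The separate values of some members are not reported here.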

Additional observations from a re-analysis of the deposited data

How the results depend on the processing

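The Rbpj count stayed between 63 and 77 of 81 genes with a window of 1 kb or 50 kb, with peaks at a −log10 p of 10 or more, without high-input peaks and with the nearest gene alone, and was 47 of 61 at starts. H3K4me3 stayed between 75 and 78 and the library labelled H3K27me3 between 74 and 78 of 81 under the segment alternatives over 81 genes. The small counts moved. HA-Zmiz1 beside 8 genes became 5 with 1 kb, 29 with 50 kb, 3 at a −log10 p of 10 or more and 2 of 61 at starts. ICN1 in the HA line, beside 2 genes, became 1 with 1 kb, 5 with 50 kb, and 1 each at a −log10 p of 10 or more, with the nearest gene alone and at starts. Flag-Zmiz1 was beside 1 gene with 50 kb. H3K4me1 over an end of 62 genes became 28 with segments above the median fold alone and 2 of 61 over a start. The overlap of HA-Zmiz1 with Rbpj, in 7 genes, became 2 at a −log10 p of 10 or more. The cause of these moves was not tested beyond what each window or limit keeps by construction. The alternatives with the nearest gene, the start and any part of the span were chosen after seeing the data. No paired analysis was possible because each target and line had 1 library, and no replicate was left out.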

Other observations

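Of 14 ribosomal protein genes with an annotated start and no Rbpj summit within 250 bp of it, 5 held CCGGAAG and 5 held GGGCGG in the promoter, against 20 and 31 of the 47 genes with a summit there. Among all coding genes with an Rbpj summit at the start, CCGGAAG was found in 25.7% and GGGCGG in 74.9%. Over all coding genes' promoters, with or without such a summit, the shares were 12.9% and 49.2%. Both motifs were thus less frequent over all promoters than over those with an Rbpj summit, and the difference among ribosomal protein genes was not tested. The upper end of the H3K4me3 range was well filled: 20 of 75 ribosomal protein genes (26.7%) lay above the 90th percentile of all covered genes, a fold of 20.2, and 12 of 74 (16.2%) lay above it for the library labelled H3K27me3, a fold of 6.72. These values are descriptions of 1 library each.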
